A study of Mus musculus with 15 samples.

Results

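The 37 genes described here encode nucleolar proteins and other ribosome biogenesis factors. They were chosen by function and not by a measured threshold, but with earlier results of these data known. Their symbols were taken from a list of such factors, out of 18193 genes that had a probe set annotated with that gene alone. All 37 had such a probe set, 77 probe sets in all, and the brightest one by mean over the arrays stood for its gene. Of the 37 genes, 33 lay above the floor on at least 5 of the 15 arrays and were tested, against 12499 of all genes. The other 4 were too dim to test. Wdr12, a partner of Bop1 and Pes1, and Ftsj3, a methyltransferase of large subunit precursors, were above the floor on 1 array each. Rrp9, a protein of the U3 snoRNP, was above it on 3 arrays and Nob1, the nuclease that trims the end of 18S ribosomal RNA, on 0.

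Whole blood RNA was profiled 6 h after dosing of mice with vehicle (5 mice), with ABBV-075 at 1 mg/kg (5 mice) or with ABBV-075 at 5 mg/kg (5 mice), 1 Affymetrix array per mouse. ABBV-075 (mivebresib) inhibits BET proteins, readers of histone acetylation that promote transcription. The series looked for transcripts in blood that respond to the compound. The sources used here give no strain, sex or age for the mice. Unless said otherwise, values below are log2 intensities after quantile normalisation, with a floor of 16 (4 on the log2 scale). Differences are log2 fold changes. Errors of group means are SDs and errors of fold changes are SEs, with n = 5 arrays per group.

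Ribosomes are built in the nucleolus, where RNA polymerase I transcribes the precursor of the large ribosomal RNAs. Small nucleolar ribonucleoproteins (snoRNPs) modify that precursor, those of the box C/D type by methylation and those of the box H/ACA type by pseudouridylation, while assembly factors cleave, fold and export the subunits. Many of these genes are known targets of the transcription factor Myc, and in blood they are expressed most by cells that grow or divide, such as activated lymphocytes and progenitors. Mature red cells and platelets lack nuclei and make no ribosomes.

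Array medians before scaling ran from 3.61 to 25.44, the lowest being 1 mg/kg replicate 1, and the correlation between any 2 arrays lay within 0.675 and 0.921. Control probe sets for 18S ribosomal RNA averaged 11.19 ± 0.94 (log2) in vehicle mice, 9.97 ± 0.43 after 1 mg/kg and 9.42 ± 0.42 after 5 mg/kg. These 18S values are also from before scaling, so differences in intensity between whole arrays remain in them. Summed intensities of 12 measured monocyte markers were 3814 to 5190 at 5 mg/kg and 6583 to 9881 with vehicle, and all 12 were lower at 5 mg/kg. Those of 9 B cell markers were 2069 to 4363 at 5 mg/kg and 1085 to 2786 with vehicle, with 8 higher. For 9 T cell markers the sums were 1847 to 3126 at 5 mg/kg and 1674 to 2430 with vehicle, with 7 higher. For 9 mature neutrophil markers they were 957 to 3711 at 5 mg/kg and 2484 to 3733 with vehicle, with all 9 lower. All 7 platelet, 6 of 7 NK cell, all 4 dendritic cell and 4 of 6 erythroid markers were lower at 5 mg/kg. Their medians were -0.25, -0.40, -0.58 and -0.28 in that order. Of the 2 eosinophil and basophil markers measured 1 was lower and 1 higher, with a median of -0.99. At 1 mg/kg against vehicle the median was -0.59 for monocyte, -0.56 for neutrophil, -0.63 for NK cell, -0.53 for dendritic cell and -0.47 for platelet markers. It was -0.11 for B cell, -0.15 for T cell, -0.07 for erythroid and -0.24 for eosinophil and basophil markers. No marker of these lists passed an adjusted p of 0.05 at 5 mg/kg against vehicle, and at 1 mg/kg this was not counted. Cd4 and Cd6 among the T cell markers were too dim to test. So were Flt3, Bst2 and Xcr1 among the dendritic cell markers. Siglecf, Ccr3, Epx, Il5ra, Mcpt8 and Cpa3 among the eosinophil and basophil markers were also too dim. Fewer cells of a type and less RNA per cell cannot be told apart in whole blood, and the part of these shifts in the results below was not tested.

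No nucleolar gene passed the test at 5 mg/kg against vehicle, but the H/ACA snoRNP subunits Dkc1 and Nop10 came closest and lay on opposite sides of vehicle. By limma with Benjamini-Hochberg adjustment over all tested genes, 0 of 33 members passed an adjusted p of 0.05, where 0.088% of all genes did. At an unadjusted p under 0.05 there were 8 members, 5 higher and 3 lower, or 24.2% of the 33, where the share of all genes was 7.78% (3.51% higher and 4.26% lower). Those higher were Nop10, Ncl, Nop56, Npm1 and Imp4, and those lower were Dkc1, Ebna1bp2 and Tsr1. The 5 arrays at 5 mg/kg did not overlap the 5 vehicle arrays for 5 members (Nop10, Ncl and Imp4 higher, Dkc1 and Ebna1bp2 lower), 15.2% of the 33, where 2.57% of all genes showed no overlap (1.11% higher and 1.46% lower). Of the 33 members, 15 were higher and 18 lower, and their median of -0.02 was close to that of all tested genes, -0.03. Their median absolute log2 fold change was 0.33, against 0.22 for all tested genes. Without scaling between arrays 1 member (Nop56) was at an unadjusted p under 0.05, where 2.01% of all genes were, and it alone was without overlap, where 0.674% of all genes were. With the mean of each gene's probe sets 5 members were at that p, where 8.33% of all genes were, and 3 (Dkc1, Nop10 and Imp4) were without overlap, where 2.46% were. For Imp4 this mean is no separate check, since its other probe sets were at the floor on all 15 arrays. The fold change plot over both doses shows this spread to either side within nearly every role.

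**Figure D1:**
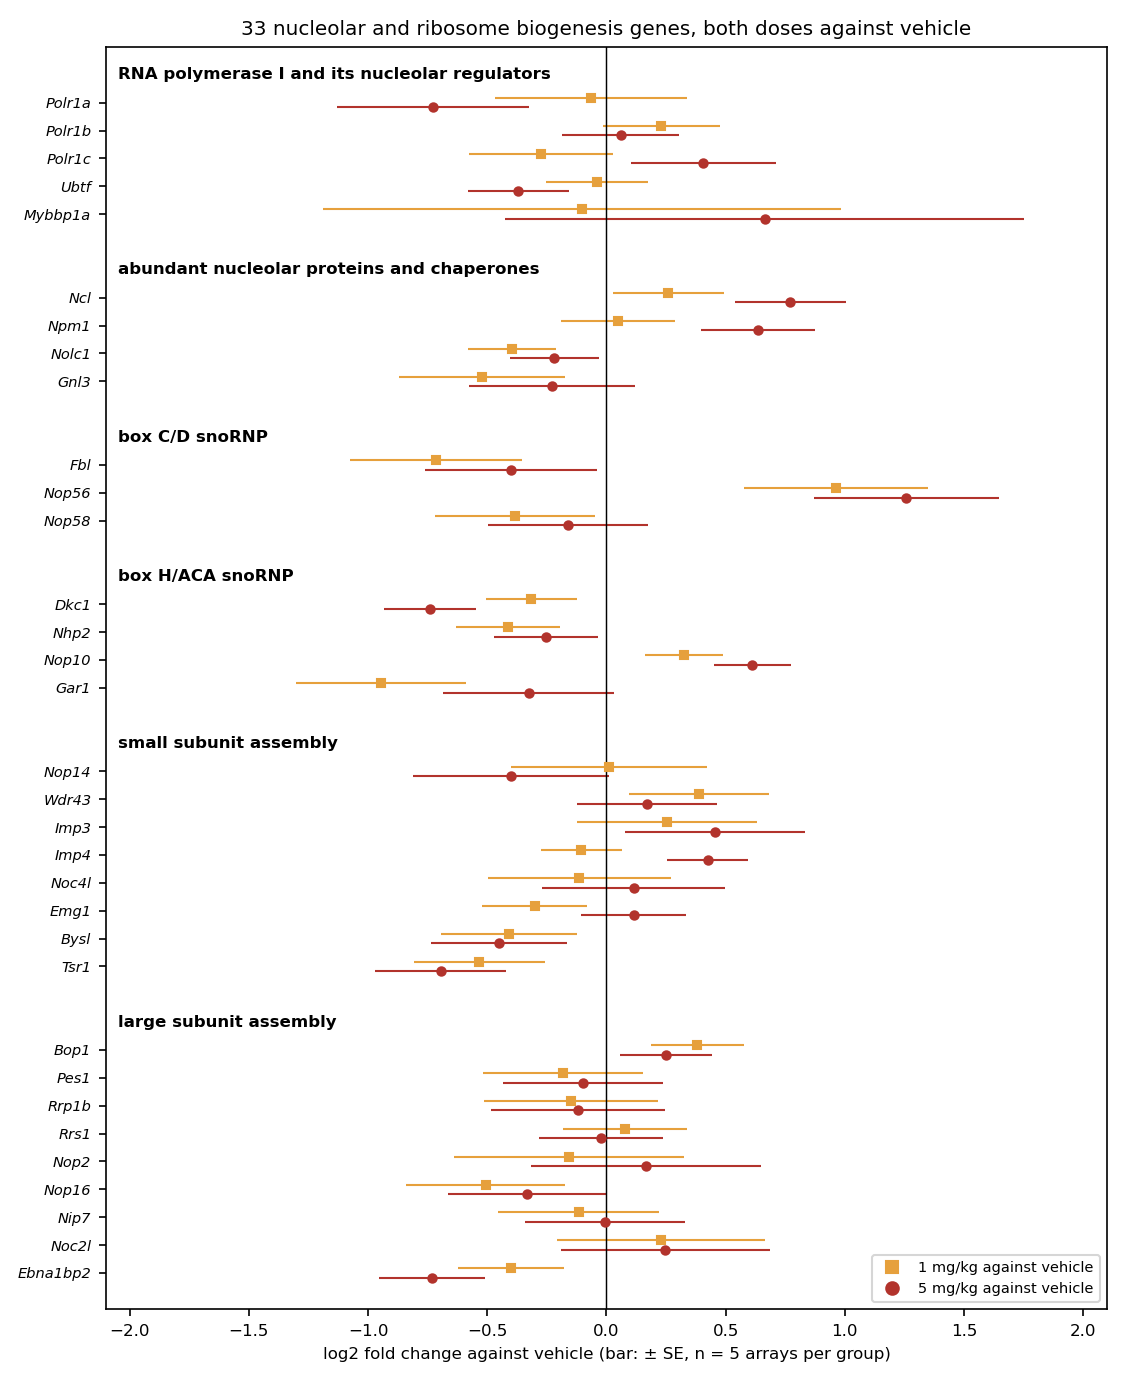
Log2 fold changes of the 33 tested genes at 1 mg/kg (squares) and 5 mg/kg (circles) against vehicle, with SE bars, grouped by role in ribosome synthesis. Values at 5 mg/kg run from -0.74 (Dkc1) to 1.26 (Nop56), and members of 1 complex stand on both sides of 0.

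The H/ACA snoRNP carries dyskerin (Dkc1), the pseudouridine synthase that also stabilises telomerase RNA, with Nop10, Nhp2 and Gar1 as its partners. Dkc1 signal was 6.90, 7.63, 7.22, 6.93 and 7 on the vehicle arrays, 6.76, 6.71, 7.03, 6.68 and 6.91 at 1 mg/kg, and 6.69, 6.61, 6.10, 6.41 and 6.14 at 5 mg/kg. All 5 values at 5 mg/kg lay below all vehicle values, and the arrays at 1 mg/kg spanned the gap between them, 2 inside the vehicle range and 1 just inside that of 5 mg/kg. The difference at 5 mg/kg was -0.74 ± 0.19, or 1.67-fold lower (limma adjusted p = 0.18).

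Nop10, the small subunit that bridges dyskerin and Nhp2, lay on the other side. Its signal was 8.09, 8.25, 8.06, 7.69 and 8.12 with vehicle, 8.23, 8.5, 8.4, 8.49 and 8.2 at 1 mg/kg, and 8.52, 8.5, 8.79, 8.76 and 8.69 at 5 mg/kg. Every array at 5 mg/kg was above every vehicle array, by 0.61 ± 0.16 between means, or 1.53-fold (limma adjusted p = 0.205). Both genes passed when a gene was represented by the mean of its probe sets, Nop10 at 0.85 ± 0.15 (limma adjusted p = 0.0296) and Dkc1 at -0.71 ± 0.14 (limma adjusted p = 0.0461). Over all alternatives the adjusted p ran from 0.0296 to 1 for Nop10 and from 0.0461 to 1 for Dkc1, the highest without scaling between arrays.

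A shift common to all probe sets of an array cancels in the difference between its Nop10 and Dkc1 signals. This pair was picked after its values were seen and is given without a test, and only its change between arrays can be read, since 2 probe sets cannot be compared in level. Without scaling, Nop10 minus Dkc1 was 1.14, 0.62, 0.86, 0.78 and 1.14 on the vehicle arrays, 1.44, 1.75, 1.37, 1.90 and 1.31 at 1 mg/kg, and 1.85, 1.86, 2.76, 2.30 and 2.57 at 5 mg/kg. Group means were 0.91 ± 0.23, 1.56 ± 0.26 and 2.27 ± 0.41 in that order. Both dose groups lay above vehicle without overlap, and among treated arrays only 1 value at 1 mg/kg (1.90) exceeded the lowest at 5 mg/kg. At 5 mg/kg the lack of overlap was set by the choice of pair. Each gene alone was already without overlap there after normalisation, on opposite sides of vehicle. How many other pairs of genes would show the same at either dose was not counted. With quantile normalisation the means were 0.91 ± 0.24, 1.55 ± 0.24 and 2.26 ± 0.39.

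The remaining H/ACA proteins were on the low side at both doses without passing. Nhp2, an RNA-binding subunit, was at -0.25 ± 0.22 at 5 mg/kg and -0.41 ± 0.22 at 1 mg/kg. Gar1, which helps release the modified RNA, had signals of 6.57, 6.59, 6.82, 6.54 and 6.34 with vehicle, 4.54, 6.82, 6.16, 5.98 and 4.64 at 1 mg/kg, and 6.27, 6.39, 6.25, 6.49 and 5.83 at 5 mg/kg. Its 1 mg/kg mean was carried by replicates 1 and 5, and the other 3 arrays of that group overlapped vehicle or lay just under it.

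**Figure D2:**
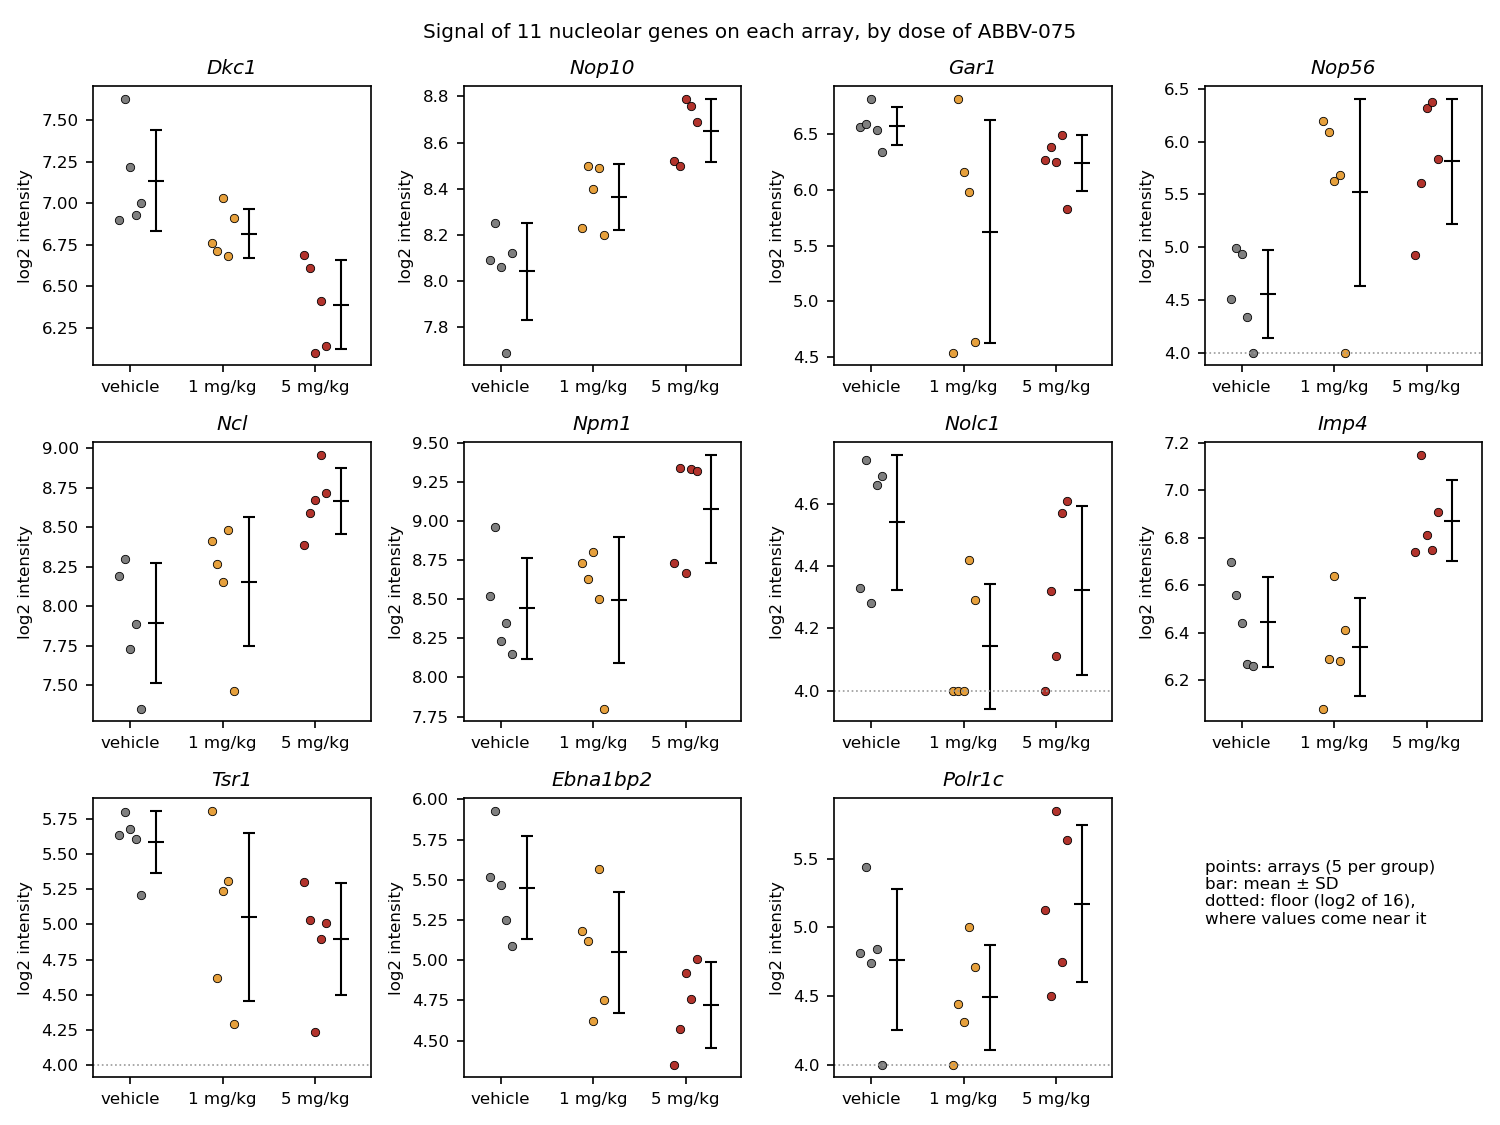
Log2 intensity of 11 genes on every array (points), with the group mean and SD beside them, from vehicle to 5 mg/kg. Dkc1 and Ebna1bp2 lie lower and Nop10, Ncl and Imp4 higher at 5 mg/kg than on any vehicle array, while Gar1 and Nop56 contain 1 or more arrays far from the rest at 1 mg/kg.

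Nucleolin (Ncl) and nucleophosmin (Npm1), abundant nucleolar proteins that bind ribosomal RNA precursors and chaperone histones and ribosomal proteins, were both higher at 5 mg/kg. Ncl signal was 8.19, 8.30, 7.73, 7.89 and 7.35 with vehicle, 8.41, 8.27, 8.15, 8.48 and 7.46 at 1 mg/kg, and 8.39, 8.59, 8.67, 8.96 and 8.72 at 5 mg/kg. All 5 arrays at 5 mg/kg were above vehicle, though the lowest exceeded the highest vehicle array by little, and the difference was 0.77 ± 0.23, or 1.71-fold (limma adjusted p = 0.293). Npm1 signal was 8.52, 8.96, 8.23, 8.35 and 8.15 with vehicle, 8.73, 8.63, 8.80, 8.50 and 7.80 at 1 mg/kg, and 8.73, 9.34, 8.67, 9.33 and 9.32 at 5 mg/kg. At 5 mg/kg 3 of its arrays stood above the whole vehicle range and the other 2 inside it, with a difference of 0.64 ± 0.24 (limma adjusted p = 0.469). For Ncl and Npm1 alike, 1 mg/kg replicate 5 was the lowest array of its group. Gnl3 (nucleostemin), a GTPase of proliferating cells, was at -0.23 ± 0.35 and Nolc1, a chaperone of snoRNPs, at -0.22 ± 0.19.

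Among the box C/D proteins only the scaffold Nop56 was higher. Its signal was 4.51, 4.99, 4.94, 4.34 and 4.00 with vehicle, 6.20, 6.09, 5.63, 5.68 and 4.00 at 1 mg/kg, and 4.93, 5.61, 6.32, 6.38 and 5.84 at 5 mg/kg. One vehicle array and 1 mg/kg replicate 5 were at the floor, and 4 of 5 arrays at each dose exceeded every vehicle array. The difference at 5 mg/kg was 1.26 ± 0.39, or 2.39-fold, the largest among the members (limma adjusted p = 0.315). With a floor of 32, which lies above all vehicle values of this gene, it was 0.83 ± 0.26. Fibrillarin (Fbl), the methyltransferase of the same particle, was at -0.40 ± 0.36, and Nop58, the other scaffold protein, at -0.16 ± 0.34.

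In small subunit assembly, Imp4, known from yeast to join the U3 snoRNA to the ribosomal RNA precursor, was higher at 5 mg/kg than in either other group. Its signal was 6.70, 6.56, 6.44, 6.27 and 6.26 with vehicle, 6.08, 6.29, 6.64, 6.28 and 6.41 at 1 mg/kg, and 6.74, 7.15, 6.81, 6.75 and 6.91 at 5 mg/kg. The 5 mg/kg arrays overlapped no other array, but the gap to vehicle was narrow and the difference small, 0.43 ± 0.17 (limma adjusted p = 0.532). Tsr1, a late factor of the cytoplasmic small subunit, had signals of 5.64, 5.80, 5.68, 5.61 and 5.21 with vehicle, 5.81, 4.62, 5.24, 5.31 and 4.29 at 1 mg/kg, and 5.30, 5.03, 4.23, 4.90 and 5.01 at 5 mg/kg. At 5 mg/kg 4 of its 5 arrays lay under all vehicle arrays, with a difference of -0.70 ± 0.28 (limma adjusted p = 0.521). The unused probe sets of Imp4 and Tsr1 were at the floor on all 15 arrays. The other tested members of this role lay between -0.45 (Bysl, required for 18S maturation and above the floor on 6 arrays in all) and 0.46 (Imp3, the partner of Imp4). Noc4l and Emg1, a methyltransferase of 18S RNA, were both at 0.11, Wdr43 at 0.17 and Nop14 at -0.40, the last 2 being parts of the small subunit processome.

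In large subunit assembly, Ebna1bp2, a factor of early large subunit precursors, was lower. Its signal was 5.52, 5.93, 5.47, 5.25 and 5.09 with vehicle, 5.18, 5.12, 4.62, 5.57 and 4.75 at 1 mg/kg, and 4.35, 4.57, 4.92, 4.76 and 5.01 at 5 mg/kg. All arrays at 5 mg/kg were under all vehicle arrays, with a difference of -0.73 ± 0.22, or 1.66-fold lower (limma adjusted p = 0.31), but its other tested probe set was higher by 0.63 ± 0.29, and the mean of its probe sets gave -0.03. The other 8 tested members lay within -0.33 (Nop16) and 0.25 (Bop1 and Noc2l) at 5 mg/kg. Bop1 and Pes1, which form 1 complex, were at 0.25 ± 0.19 and -0.10 ± 0.34. Nop2, a methyltransferase of 28S RNA, was at 0.17 ± 0.48, Rrp1b at -0.12, Rrs1, which brings 5S RNA into the large subunit, at -0.02 and Nip7 at -0.01.

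No subunit of RNA polymerase I passed. Its largest subunit Polr1a was at -0.73 ± 0.40, with a 95% interval of -1.58 to 0.13, so that a decrease of more than 2-fold and no decrease are both inside it. The value rests on 1 bright probe set, and the other Polr1a sets were above the floor on 0 or 1 arrays. Polr1b was above the floor on 7 arrays and was at 0.06 ± 0.24, and Polr1c, shared with RNA polymerase III, was at 0.41 ± 0.30. Ubtf, which binds the ribosomal DNA and opens it for transcription, was at -0.37 ± 0.21, and its 5 arrays at 5 mg/kg (8.54 to 8.78) were closer together than those of vehicle (8.66 to 9.44). The other Ubtf probe set was above the floor on 2 arrays. The signal of Mybbp1a, a nucleolar protein that also represses RNA polymerase I, ran from 4.00 to 8.87 with vehicle, from 4.00 to 8.91 at 1 mg/kg and from 4.00 to 8.67 at 5 mg/kg, and its group SDs of 1.95, 2.00 and 1.95 were the widest of all members. Its difference at 5 mg/kg was 0.66 ± 1.09, and its other tested probe set gave 0.46 ± 0.38, neither passing.

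**Figure D3:**
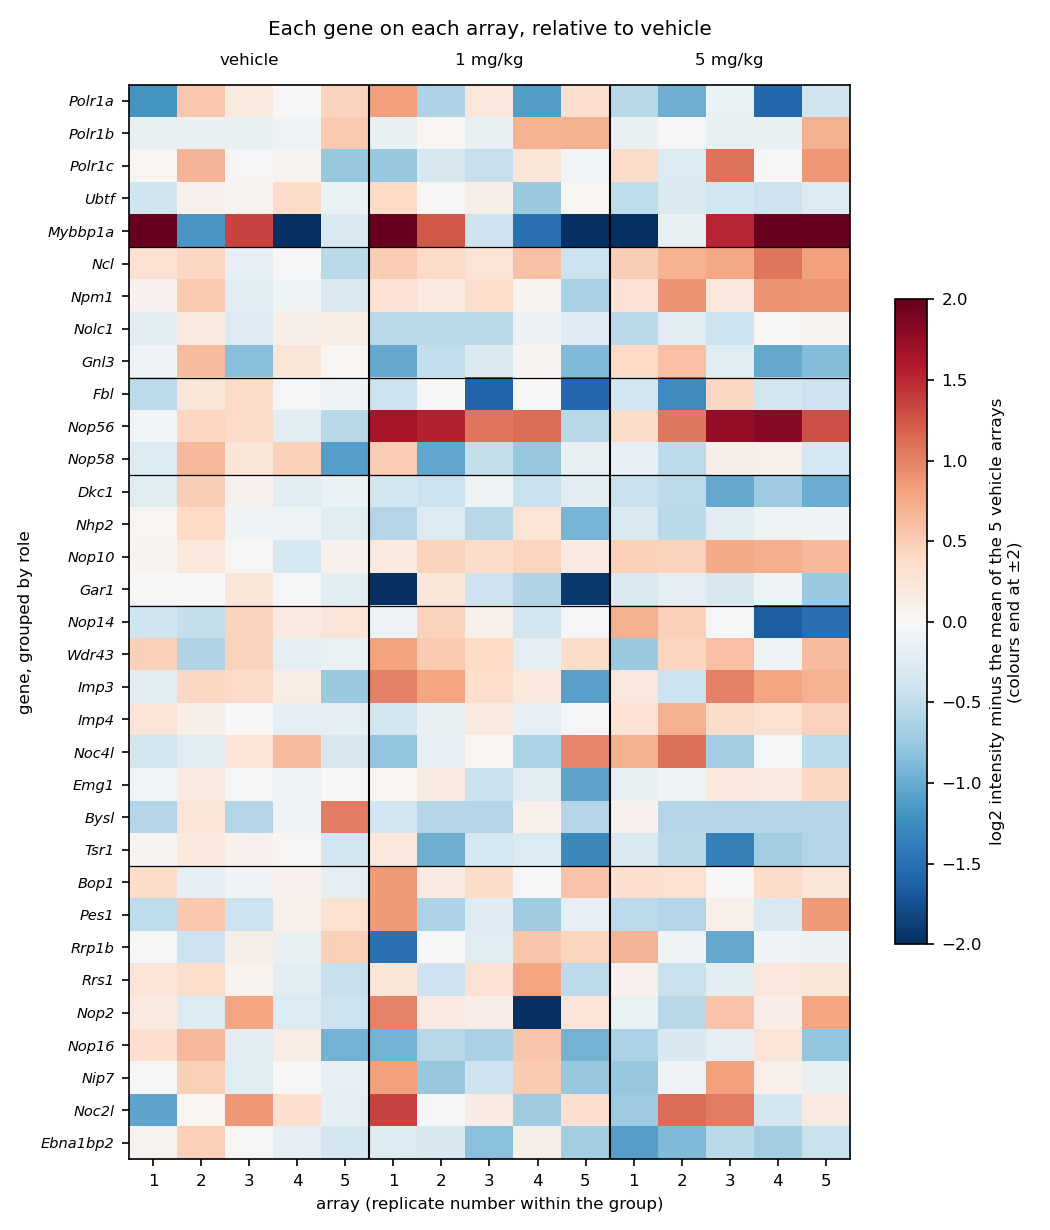
Log2 intensity of each gene (rows, grouped by role) on each array (columns), minus the mean of the 5 vehicle arrays. Ncl, Npm1 and Nop10 are mostly red and Dkc1 and Ebna1bp2 blue on the 5 mg/kg arrays, while Mybbp1a swings widely in all 3 groups.

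Promoters were searched for motifs that the choice of members did not use. RefSeq promoter sequences (GRCm38.p6, 250 bases before to 50 after the start) matched 33 of the 37 genes, with 42 promoters. Npm1, Fbl, Bop1 and Rrs1 did not match. The sequence CACGTG, the E-box bound by Myc and related factors, was in 14.3% of these 42 promoters (6 genes: Imp4, Mybbp1a, Nop2, Pes1, Tsr1 and Wdr43), and in 7.15% of 32851 promoters of all genes. The sequence CCGGAAG or its reverse complement CTTCCGG, a core site of ETS factors, was in 26.2% (10 genes: Ebna1bp2, Emg1, Gar1, Nhp2, Nip7, Noc2l, Nolc1, Nop2, Polr1c and Tsr1), and in 8.86% of all. No overlap of the 2 motifs occurs in the sequences shown. These shares are descriptions of letters, not of binding. The 5 promoters printed run from 130 bases before the start through the first 30 transcribed, on the plus strand, with motif matches in capitals. Dkc1 and Nop10 are shown as the opposed pair of 1 complex. Imp4, Ebna1bp2 and Tsr1 are shown as the genes with a match among those at an unadjusted p under 0.05 at 5 mg/kg against vehicle. The other genes with a match are not printed.
Dkc1, chrX:75095724-75095883: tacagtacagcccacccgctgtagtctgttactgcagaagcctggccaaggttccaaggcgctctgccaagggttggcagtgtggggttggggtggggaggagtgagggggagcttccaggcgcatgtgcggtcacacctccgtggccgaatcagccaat
Nop10, chr2:112261796-112261955: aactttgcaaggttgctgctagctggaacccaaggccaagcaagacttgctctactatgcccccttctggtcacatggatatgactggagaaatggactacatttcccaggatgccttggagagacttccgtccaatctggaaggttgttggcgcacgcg
Imp4, chr1:34439699-34439858: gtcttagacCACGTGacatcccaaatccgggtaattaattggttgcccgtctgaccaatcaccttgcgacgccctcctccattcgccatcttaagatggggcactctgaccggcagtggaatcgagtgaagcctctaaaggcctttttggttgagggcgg
Ebna1bp2, chr4:118620669-118620828: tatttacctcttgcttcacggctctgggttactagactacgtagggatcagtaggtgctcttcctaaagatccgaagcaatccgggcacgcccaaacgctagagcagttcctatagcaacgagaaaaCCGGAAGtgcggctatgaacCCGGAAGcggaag
Tsr1, chr11:74897950-74898109: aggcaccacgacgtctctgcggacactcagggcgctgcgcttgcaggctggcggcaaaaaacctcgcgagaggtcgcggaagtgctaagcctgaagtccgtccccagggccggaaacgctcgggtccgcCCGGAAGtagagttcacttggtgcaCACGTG
The promoters of Dkc1, Nop10, Ncl and Nop56 held neither motif in the whole window. Imp4 held the E-box 121 bases before the start. Tsr1 held both motifs, the ETS core across the start and the E-box at base 25 after it, and Ebna1bp2 held the ETS core in 2 places, across the start and at base 18 after it.

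Probe sets of 1 gene gave a check within the arrays. Of the 77 probe sets 51 were above the floor on at least 5 arrays and 14 were at the floor on all 15. More than 1 probe set was tested for 15 members, and in 10 of them all had the same direction at 5 mg/kg against vehicle. The 3 probe sets of Dkc1 gave -0.74 ± 0.19, -0.69 ± 0.23 and -0.71 ± 0.20, so that its lower signal was seen by each at nearly the same size. In the set at -0.69 the arrays at 5 mg/kg overlapped vehicle, which they did not in the others. Those of Nop10 gave 0.61 ± 0.16 and 1.08 ± 0.22, and the dimmer one had the lowest adjusted p of any member probe set when each was tested on its own (limma adjusted p = 0.0696). Its signal was 6.56, 6.77, 6.16, 6.34 and 6.42 with vehicle, 6.28, 7.13, 6.71, 7.41 and 6.65 at 1 mg/kg, and 7.47, 7.15, 7.62, 7.86 and 7.55 at 5 mg/kg, again without overlap between 5 mg/kg and vehicle. The pairs for Npm1 (0.64 and 0.68), Nop56 (1.26 and 1.11), Nhp2 (-0.25 and -0.25) and Fbl (-0.40 and -0.29) ran together. Ncl gave 0.77 and 1.20 in its 2 brighter sets and -0.18 ± 0.56 in a set whose suffix marks probes that can match other sequences. The dimmer tested set of Ebna1bp2 and the set used for Rrs1 have the same suffix. Ebna1bp2, Noc2l, Rrp1b and Wdr43 also had probe sets on both sides of 0, so their directions are uncertain.

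**Figure D4:**
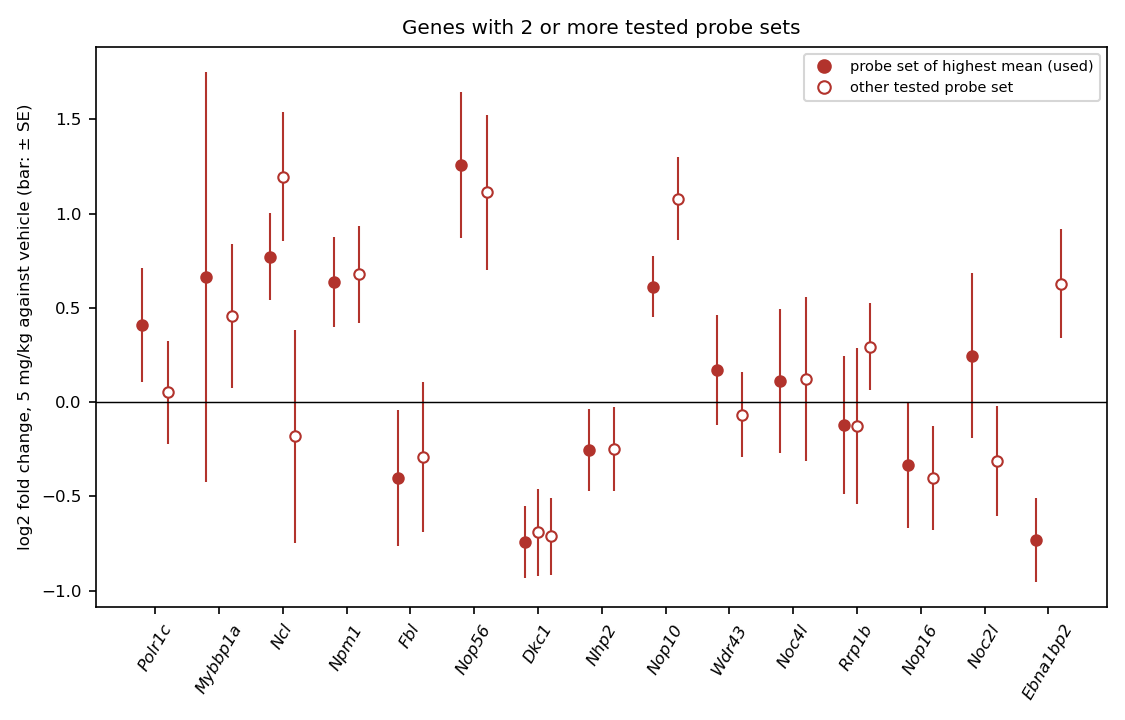
Log2 fold change at 5 mg/kg against vehicle, with SE bars, for each tested probe set of the 15 genes that had more than 1 (filled: the probe set used, open: the others). The 3 sets of Dkc1 lie together near -0.7 and both sets of Nop10 above 0.6, whereas those of Ebna1bp2 lie on opposite sides of 0.

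The 18S control signal, taken without scaling between arrays, was lower at 5 mg/kg. It was 8.83 to 9.88 on the log2 scale against 10.24 to 12.31 with vehicle. These ranges do not overlap, so 18S signal and dose cannot be told apart in a fit that holds both. Some of the values above shifted when the 18S signal entered the fit as a covariate. Dkc1 was then at -0.55 ± 0.31, Ebna1bp2 at -0.32 ± 0.34 and Tsr1 at -0.30 ± 0.44, all smaller in size. Ncl was at 1.24 ± 0.35, Nop10 at 0.77 ± 0.26, Npm1 at 0.92 ± 0.38, Nop56 at 1.5 ± 0.64 and Imp4 at 0.70 ± 0.27, all larger, and 0 members passed (limma adjusted p = 0.449 to 0.867 over these 8). At an unadjusted p under 0.05 the count was then 7, the 5 higher genes with Polr1a and Ubtf, where 8.62% of all genes were, so that Dkc1, Ebna1bp2 and Tsr1 were no longer among them. With the 2 vehicle arrays highest in 18S left out it was 8, with Polr1a in place of Tsr1, where 8.45% of all genes were, and members without overlap numbered 8, with Npm1, Polr1a and Ubtf added, where the share of all genes was 9.11%.

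No nucleolar gene passed at 1 mg/kg against vehicle, where Nop56 was higher and Gar1 and Nolc1 lower at an unadjusted p alone. In all 0 of 33 passed an adjusted p of 0.05 by limma, where 0.008% of all genes did, and 3 members were at an unadjusted p under 0.05 (Nop56 higher, Gar1 and Nolc1 lower), 9.09% of the 33 where 6.03% of all genes were (1.97% higher and 4.06% lower). No member was without overlap, where 0.904% of all genes were (0.184% higher and 0.72% lower). Of the 33, 11 were higher and 22 lower, with a median of -0.12 against -0.02 for all tested genes. Nop56 was at 0.96 ± 0.39 (limma adjusted p = 0.782), Gar1 at -0.95 ± 0.36 (limma adjusted p = 0.777) and Nolc1 at -0.40 ± 0.19 (limma adjusted p = 0.828). Nolc1 signal was 4.33, 4.74, 4.28, 4.66 and 4.69 with vehicle, 4.00, 4.00, 4.00, 4.42 and 4.29 at 1 mg/kg, and 4.00, 4.32, 4.11, 4.57 and 4.61 at 5 mg/kg, all near the floor. Single arrays decided this count: at an unadjusted p under 0.05 it was 1 (Tsr1) without replicate 1 of that dose, the array of lowest intensity, where 5.61% of all genes were. It was 8 without replicate 4 of that dose, where 7.23% of all genes were, and 5 without vehicle replicate 1, where 7.17% were. Without 1 mg/kg replicate 1, Gar1 was at -0.67 ± 0.33 and Nop56 at 0.79 ± 0.41, and without replicate 5 of that dose Nop56 was at 1.34 ± 0.30. Single members were without overlap when 1 array was left out: Nop10 without vehicle replicate 2 (1.37% of all genes), Gar1 without 1 mg/kg replicate 2 (2.13%), Nhp2 without its replicate 4 (1.88%) and Nop56 without its replicate 5 (1.59%). A count of 1 in 33 is near these shares.

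The doses shared their vehicle arrays, so their values are set side by side rather than counted as 2 findings. Dkc1 means were 7.13 ± 0.30 in vehicle mice, 6.82 ± 0.15 after 1 mg/kg and 6.39 ± 0.27 after 5 mg/kg, and those of Nop10 were 8.04 ± 0.21, 8.37 ± 0.14 and 8.65 ± 0.14. Those of Ncl were 7.89 ± 0.38, 8.15 ± 0.41 and 8.67 ± 0.21 in the same order. Imp4 was at 0.43 ± 0.17 for 5 mg/kg and -0.11 ± 0.17 for 1 mg/kg, both against vehicle.

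At 5 mg/kg against 1 mg/kg 0 of 33 members passed by limma, as did 0% of all genes, and 5 were at an unadjusted p under 0.05 (4 higher, 1 lower), 15.2% of the 33 where 7.9% of all genes were (5.26% higher and 2.63% lower). Imp4 was at 0.53 ± 0.17 (limma adjusted p = 0.491) and was the 1 member without overlap, where 1.16% of all genes had none (0.92% higher and 0.24% lower). Npm1 was at 0.59 ± 0.24, Ncl at 0.51 ± 0.23 and Dkc1 at -0.43 ± 0.19 (limma adjusted p = 0.563 to 0.614 for these and Polr1c). Polr1c was at 0.68 ± 0.30, with signals of 4.81, 5.44, 4.74, 4.84 and 4.00 with vehicle, 4.00, 4.44, 4.31, 5.00 and 4.71 at 1 mg/kg, and 5.13, 4.5, 5.85, 4.75 and 5.64 at 5 mg/kg. Its groups overlapped throughout. In all 22 members were higher and 11 lower, with a median of 0.17 against -0.02 for all tested genes. The count of 5 was 2 without replicate 3 or 5 of 1 mg/kg, where 7.72% and 6.07% of all genes were. It was 3 without replicate 2 of 5 mg/kg (9.06% of all genes), 2 without its replicate 3 (6.63%) or 4 (5.56%) and 1 (Imp4) without its replicate 5 (6.22%). Members without overlap numbered 2 without replicate 2 of 5 mg/kg (2.85% of all genes) or of 1 mg/kg (2.71%). They numbered 3 without replicate 1 of 5 mg/kg (2.29%) or replicate 4 of 1 mg/kg (2.93%), Imp4 among them each time.

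Other genes of ribosome biogenesis, a list of 106 that holds no member of the 37, gave no passing gene at 5 mg/kg. Of these, 84 were tested, 0 passed over all genes and 4 were at an unadjusted p under 0.05 (1 higher, 3 lower), 4.76% where 7.78% of all genes were. Their median was -0.075. The gene closest to the threshold was Polr1d, a subunit shared by RNA polymerases I and III, at 8.01 ± 0.18 with 5 mg/kg and 7.34 ± 0.29 with vehicle, a difference of 0.67 ± 0.20 without overlap (limma adjusted p = 0.277). The probe set used for Polr1d also has the suffix of probes that can match other sequences. Naf1, which assembles H/ACA snoRNPs and is exchanged for Gar1, was at -0.61 ± 0.21 (limma adjusted p = 0.404). It was above the floor on 3 of 5 arrays at each dose, and at 1 mg/kg against vehicle it was at -0.60 ± 0.21. Wdr36, a small subunit processome protein, was at -0.68 ± 0.28 and Mdn1, the large ATPase that strips factors from the large subunit, at -1.06 ± 0.50, both above the floor on 2 of 5 arrays at 5 mg/kg.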

How the data were processed

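The authors deposited 1 linear intensity for each probe set and array, some below 0, a unit read from the numbers alone. Biotinylated cRNA came from total RNA with an Affymetrix IVT kit, per the labels' protocols, while software, summarisation and any normalisation are not given in the sources used here. Of 45101 probe sets, 64 controls were left out, 34945 had a single gene, 932 more than 1 and 9160 none in the annotation. The annotation can be old. Values were quantile-normalised, set to at least 16 and taken to log2. Genes above 16 on at least 5 arrays entered limma 3.58.1 under R 4.3.3 (two-sided, all 15 arrays, group means as terms, 12 residual and 3.904 prior degrees of freedom) with Benjamini-Hochberg adjustment. The number of arrays limits the precision. Values on every array are given for the 8 members of smallest p at 5 mg/kg, the 4 in each other comparison and those without overlap. The members, lists and motifs were chosen with earlier results of these data known. Replicate numbers pair no mice in the labels. Alternatives covered scaling, floor, filter, probe set choice, weights, the 18S signal and each array left out. P-values set each group difference against the spread between arrays within groups, with 1 array per mouse. That spread holds differences between mice and between array preparations alike.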

Additional observations from a re-analysis of the deposited data

Results flagged for a closer look

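In groups of 5 arrays, 7 of 99 combinations of gene and group held an array whose distance to its nearest neighbour took up most of the group's range (Dixon's test at the 95% level, critical value 0.71), and chance flags about 1 in 20 groups. Nop56 on 1 mg/kg replicate 5 was at 4.00, the floor, where the other arrays of the group were at 5.63 to 6.20, and without it the difference from vehicle was 1.34 in place of 0.96. Nop2 on 1 mg/kg replicate 4 was also at 4.00, where the others were at 6.46 to 7.31. Nop16 was high on 1 mg/kg replicate 4, at 5.49, where the others were at 4.00 to 4.39. Bysl was high on 1 mg/kg replicate 4, at 4.69 against 4.00 to 4.20, and on 5 mg/kg replicate 1, at 4.68, with the others at the floor. Polr1b was high on 5 mg/kg replicate 5, at 4.86 against 4.00 to 4.15, and on vehicle replicate 5, at 4.67 against 4.00 to 4.04. All of these arrays or their neighbours lay at or near the floor, and 3 of the 7 came from 1 mg/kg replicate 4, the array of highest median intensity before scaling.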

How the results depend on the processing

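Members past the adjusted threshold numbered 0 in every comparison and under every alternative run, except that 2 (Dkc1 and Nop10) passed at 5 mg/kg against vehicle when probe sets of 1 gene were averaged. Among the members refitted under the alternatives none changed sign, though the other probe set of Ebna1bp2, taken alone, had the opposite sign; Polr1d and the other genes outside the 37 were not refitted. Percentages in brackets are shares of all genes under the same setting. Members at an unadjusted p under 0.05 at 5 mg/kg against vehicle numbered 7 to 9 with each array left out in turn (5.87% to 8.95%), 1 without scaling between arrays (2.01%) and 5 with the mean of probe sets (8.33%). At 1 mg/kg they numbered 1 to 8 with each array left out (4.76% to 7.96%), 0 without scaling (1.14%), 1 with the 18S covariate (6.86%) or without the vehicle pair of highest 18S signal (5.64%), and 5 when 1 array above the floor was enough (6.13%), with no filter (4.86%) or with array weights (5.68%). At 5 against 1 mg/kg they numbered 1 to 7 with each array left out (5.56% to 11.2%), 0 without scaling (1.52%) and 3 with a floor of 8 (7.52%) or the replicate block (7.46%). Members without overlap at 5 mg/kg against vehicle numbered 5 to 7 with each array left out (2.58% to 4.93%), 1 without scaling (0.674%), 3 with the mean of probe sets (2.46%) and 8 without that vehicle pair (9.11%). At 1 mg/kg they numbered 0 to 1 with each array left out (0.907% to 2.66%), and 1 with each probe set on its own (0.877%) or without that pair (4.24%). At 5 against 1 mg/kg they numbered 1 to 3 with each array left out (1.15% to 2.93%), 0 without scaling (0.0401%) and 2 with 75th percentile scaling (1.14%). The cause of these shifts was not tested. Without scaling the median over all genes at 5 mg/kg was 0.10, as was that of the members. The median of the members ran from -0.09 to 0.02 with each array left out at 5 mg/kg against vehicle, from -0.29 to -0.09 at 1 mg/kg, and from 0.06 to 0.22 at 5 against 1 mg/kg. Deviations of same-numbered arrays correlated at -0.275 to 0.355, over 0.1 in 3 of 15 pairs. The labels do not say that the numbers pair mice, and these few correlations cannot settle it. The replicate block left the count at 8 at 5 mg/kg (7.47%) and 3 at 1 mg/kg (5.98%). The removal of the 2 vehicle arrays, and the counts at an unadjusted p and without overlap, were chosen after seeing the data.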
